A study of Mus musculus with 22 samples.

Results

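The maternal mRNA storage and clearance genes described here are Btg4, Cnot7, Cnot6l, Pabpn1l and Zfp36l2, which act in deadenylation, Zar1, Zar1l, Ybx2 and Cpeb1, which hold maternal mRNA in store, and Dcp1a, which acts in decapping. They were chosen by name, as the genes whose SYMBOL entry in the FPKM table equals a name on this list, and all 10 were found among the 55335 genes of the table. FPKM are mapped fragments scaled to transcript length and library size, so their levels can be set side by side between genes.

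As background, the growing oocyte builds up mRNA that is kept with short poly(A) tails and little translated, bound by RNA-binding proteins. When meiosis resumes and after fertilization, this mRNA is first translated and then removed: adaptor proteins bring the CCR4-NOT deadenylase to it, the tail is shortened, and decapping and exonucleases complete its decay. Transcription from the embryo's own genome takes over during the first cleavages, and several of the factors that store and clear maternal mRNA are oocyte products that are lost in the same period.

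RNA-seq was performed on 22 libraries of mouse embryos from B6D2F1 females mated with B6D2F1 males. Each library was made from 15 embryos, with oligo-dT priming and without strand information. Zygotes were collected from females 8 weeks old and cultured in vitro. They were harvested as 2-cell embryos at 43 to 44 h, as morulae at 78 h and as blastocysts at 94 h post hCG. The H2A.Z KD embryos had been injected as zygotes, at 20 to 22 h post hCG, with about 10 pl of a mix of 3 siRNA pairs at 20 μM. The treatment of the control embryos is not given for these libraries, and the study names noninjected controls for its qPCR. Control groups held 4 libraries per stage, and KD groups held 3 (2-cell), 3 (morula) and 4 (blastocyst). Values are listed below in the order of the replicate numbers: 1, 2, 4 and 5 for control and 1, 2 and 4 for KD 2-cell embryos, 1, 2, 7 and 8 for control and 1, 2 and 6 for KD morulae, and 1, 4, 5 and 6 for both groups of blastocysts.

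H2afz, the gene the siRNAs target, was measured at 1244, 1236, 905 and 1178 FPKM in control 2-cell embryos and at 415, 139 and 112 FPKM in KD 2-cell embryos. It was at 1158, 1336, 1511 and 1421 FPKM in control morulae against 30.3, 25.7 and 28.997 FPKM in KD morulae, and at 2656, 2431, 1945 and 2055 FPKM in control blastocysts against 64.2, 67.2, 53.2 and 57.6 FPKM in KD blastocysts. The KD libraries lay below all control libraries of their stage, and KD replicate 1 of the 2-cell stage kept the most H2afz mRNA of the KD libraries. The log2 fold change was −5.41 (adjusted p = 9.71e-08) in morulae and −5.19 (adjusted p = 3.63e-08) in blastocysts, and −2.53 (adjusted p = 0.543) in 2-cell embryos, where it did not pass. Its relative H2afv was at 111, 118, 96.8 and 113 FPKM in control and 97.6, 85.4 and 83.7 FPKM in KD 2-cell embryos (−0.23, adjusted p = 0.840), at 97.3, 113, 100.0 and 92.5 FPKM in control and 12.9, 11.007 and 9.90 FPKM in KD morulae (−2.93), and at 49.9, 62.0, 54.5 and 63.5 FPKM in control and 19.9, 16.9, 10.6 and 13.9 FPKM in KD blastocysts (−1.86). The stage labels also fitted their markers: 5 genes of the 2-cell embryo (Zscan4c, Zscan4d, Zfp352, Tcstv1 and Tcstv3) summed to between 328 and 595 FPKM in control 2-cell embryos and to between 5.58 and 17.0 FPKM in control morulae, and 6 trophectoderm genes summed to between 982 and 1470 FPKM in control blastocysts. Of 10 genes of cumulus and granulosa cells, which surround the oocyte, 9 were below 1 FPKM on average in every group, 3 of them at 0 in all control 2-cell libraries, and the most abundant, Amhr2, averaged 11.9 FPKM there. Between 10143 and 12090 genes reached 1 FPKM in a library, and no 2 libraries held identical values.

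The 10 genes together made up 0.0955% to 0.284% of all FPKM in the control 2-cell libraries and 0.00498% to 0.00826% in the control morulae. In control 2-cell embryos the order of their mean levels in FPKM ran from Btg4 (750.1 ± 381, SD, n = 4) over Cnot7 (154 ± 10.5), Cnot6l (28.0 ± 4.77), Zar1l (19.5 ± 2.82), Dcp1a (7.08 ± 1.54), Cpeb1 (4.19 ± 0.896), Ybx2 (3.76 ± 1.00), Zar1 (2.00 ± 0.799) and Zfp36l2 (1.63 ± 0.620) to Pabpn1l (1.32 ± 0.498). The ranges of Btg4, Cnot7 and Dcp1a did not overlap those of the genes next to them in this order, whereas Cnot6l overlapped Zar1l, and the 5 genes from Cpeb1 down to Pabpn1l each overlapped the next. In control blastocysts the order was led by Cnot7 (21.6 ± 4.22 FPKM), followed by Zfp36l2 (3.35 ± 0.889 FPKM), which had been near the end of it in 2-cell embryos.

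**Figure D1:**
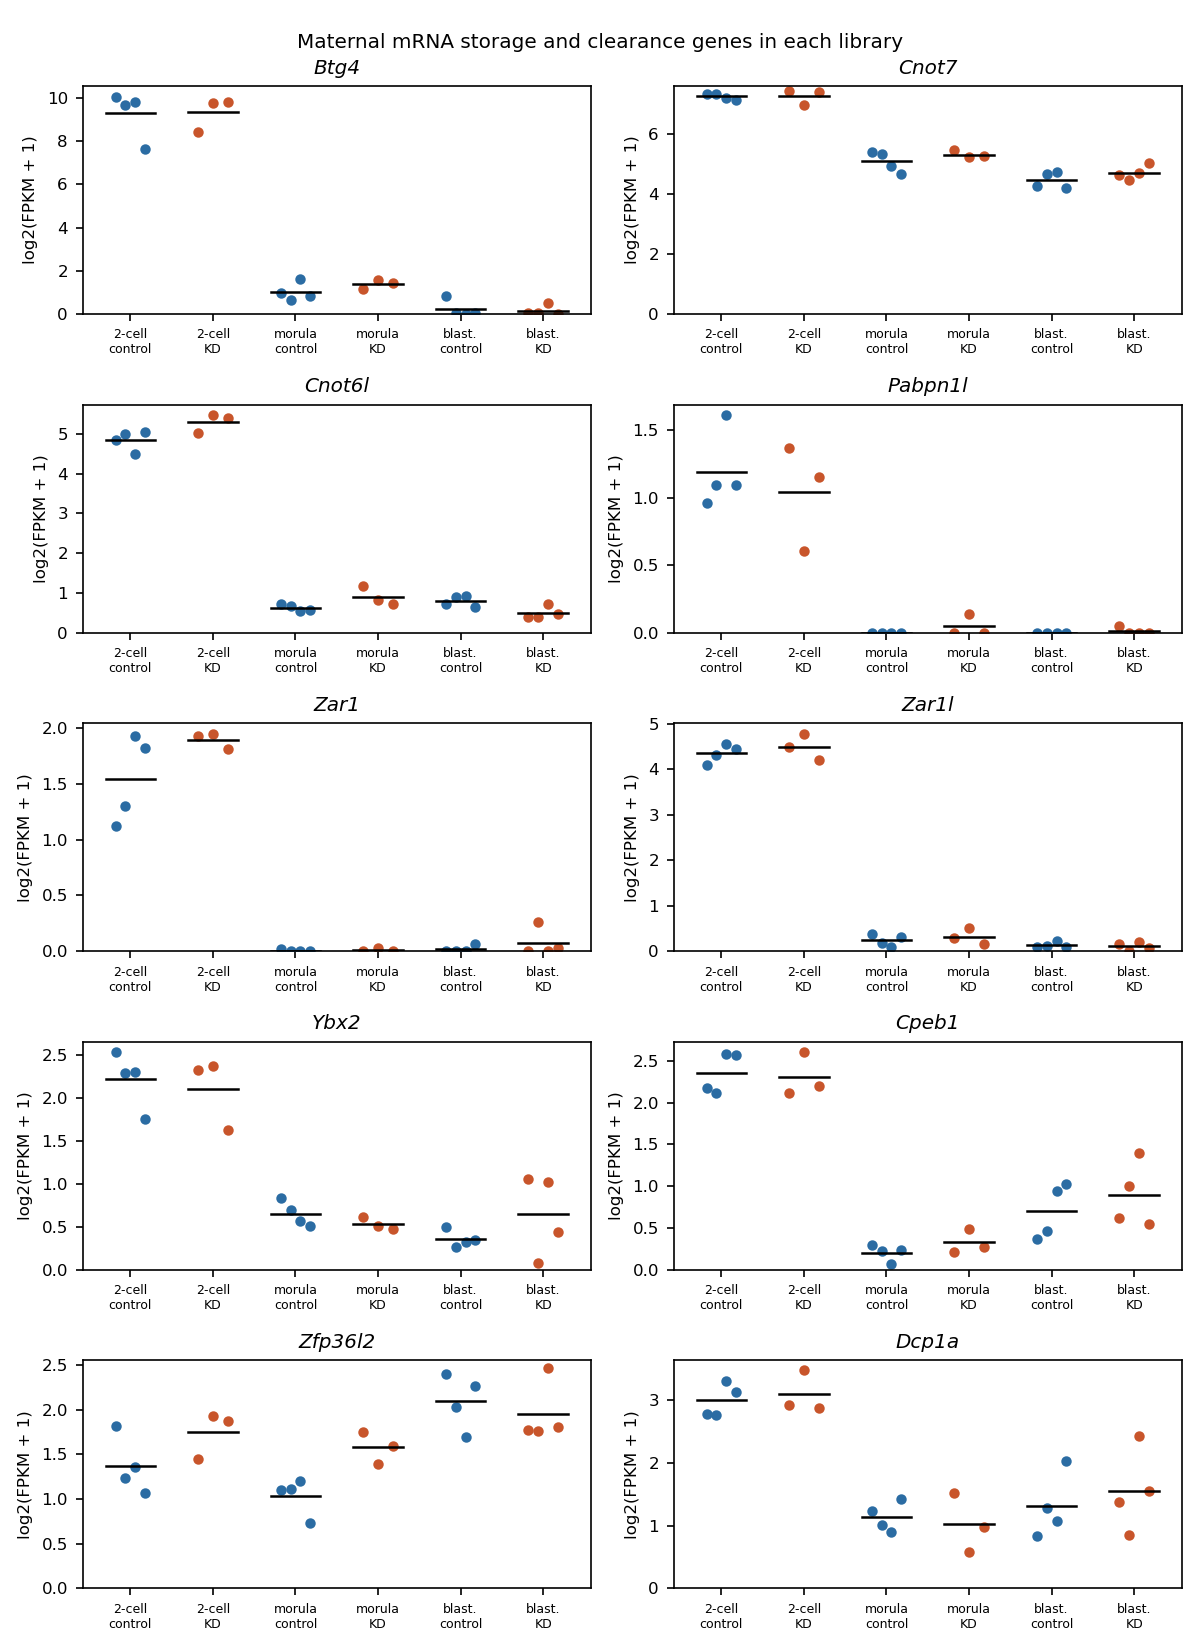
The 10 maternal mRNA storage and clearance genes in each of the 22 libraries, as log2(FPKM + 1) on the vertical axis; points are libraries in the 6 groups on the horizontal axis (blue control, orange H2A.Z KD) and black lines are group means. Between 2-cell embryos and morulae the points of 9 genes separate fully in control and in KD embryos (73.8% and 79.8% of all genes tested do), while those of Zfp36l2 overlap, and Btg4 covers the widest range, from 0 to 1067 FPKM.

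Changes between stages were tested with limma in a single fit over all 22 libraries and 6 groups, on log2(FPKM + 1) after scaling, and fold changes below are on this scale, on which the change of genes near 1 FPKM is understated. A gene is counted as differentially expressed (DEG) at an adjusted p under 0.05 with an absolute log2 fold change above 1. From the 2-cell stage to the morula, 9 of the 10 genes were DEGs with lower expression in control embryos, against 29.1% of the 15697 genes tested, and 9 were in KD embryos, against 29.8%. Without the limit on size, all 10 passed as lower in control embryos, against 41.3% of genes tested, and 9 in KD embryos, against 40.5%. The median log2 fold change of the 10 members was −2.08 in control and −2.10 in KD embryos, beside −0.02 and −0.04 over all genes tested. All 10 passed the filter on low values (at least 1 FPKM in at least 3 of the 22 libraries), but Zar1, Zar1l and Pabpn1l did so through 2-cell libraries alone, and Cnot6l and Ybx2 reached 1 FPKM in too few later libraries (1 and 2) to pass without them. These genes had to be lower in morulae, so the count and the median describe the list and test nothing. In bulk samples such as these, fewer cells of a type and less RNA per cell cannot be told apart, and because each library is scaled to its own total, a lower FPKM is a smaller share of the mRNA that was captured.

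Btg4, an adaptor that brings the CCR4-NOT deadenylase to maternal mRNA at the oocyte-to-embryo transition, lies at chr9:51060901-51119875 on the plus strand (mm10). It was measured at 1067, 833, 902 and 199 FPKM in control 2-cell embryos and at 339, 886 and 916 FPKM in KD 2-cell embryos. Control replicate 5 and KD replicate 1 were low and the other 5 libraries were close together, so the groups overlapped, and Btg4 ranked between 37 and 50 among all genes in those 5 libraries but 246 in control replicate 5 and 136 in KD replicate 1. In morulae Btg4 was at 0.955, 0.563, 2.08 and 0.767 FPKM in control and 1.22, 1.97 and 1.73 FPKM in KD embryos. In blastocysts it was at 0.791, 0.0136, 0.00571 and 0.0356 FPKM in control and 0.0372, 0.0234, 0.430 and 0 FPKM in KD embryos. Every morula was thus far below every 2-cell library, and the control morula mean was 0.145% of the control 2-cell mean. On the log2(FPKM + 1) scale, the fall from the 2-cell stage to the morula was the largest of the 10 genes in both conditions. The log2 fold changes in limma were −8.40 (SE 0.40, adjusted p = 1.17e-14) in control and −8.10 (SE 0.46, adjusted p = 4.22e-13) in KD embryos. Genes that start near 1 FPKM cannot fall as far on this scale, such as Pabpn1l, which was at 0 in all control morulae. The order therefore does not rank the falls as shares of the 2-cell level.

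The low Btg4 of these libraries was not seen to the same extent for Oosp1, which encodes a secreted oocyte protein. Oosp1 was at 778, 703, 597 and 530.0 FPKM in the control and 771, 848 and 592 FPKM in the KD 2-cell libraries, so control replicate 5 was the lowest there but within 2-cell levels, and KD replicate 1 was among the higher ones. Pan3, of the poly(A) tail enzymes listed below, was lowest in the same libraries as Btg4. It was at 84.9, 52.2, 66.4 and 40.3 FPKM in control and 35.6, 77.6 and 65.7 FPKM in KD 2-cell embryos. How many other genes share this was not tested. Between KD and control 2-cell embryos the Btg4 log2 fold change was 0.11 (SE 0.55, adjusted p = 0.980 in limma), and it moved with single libraries: it was −0.45 without control replicate 5, −0.08 without KD replicate 2 and −0.16 without KD replicate 4, but 0.38, 0.26 and 0.25 without control replicates 1, 2 and 4 and 0.57 without KD replicate 1. The adjusted p ranged from 0.840 to 0.9999 over the libraries left out.

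Oosp1 was also the gene whose pattern over the 6 group means was closest to that of Btg4 among the 15697 genes past the filter, with a root mean square difference of 0.0947 on the log2 scale after each gene was centred. Oosp3, at 0.221, and Tcl1b2, at 0.283, came next. By the same measure the closest gene was Gm11973 for Cnot7 (0.0889), Zscan4-ps3 for Cnot6l (0.123), Mctp1 for Pabpn1l (0.0185), Gm9791 for Zfp36l2 (0.122), Obox4-ps3 for Zar1 (0.0310), Gm20617 for Zar1l (0.0658), Tent5b for Ybx2 (0.0563), Ubash3b for Cpeb1 (0.0590) and Rab6a for Dcp1a (0.0600). Members with low FPKM throughout, such as Pabpn1l and Zar1, vary little on this scale. Their small differences therefore do not mean a closer match than that of Btg4 and Oosp1.

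Cnot7, a catalytic deadenylase subunit of CCR4-NOT, lies at chr8:40492540-40515847 on the minus strand. It was measured at 164, 162, 149 and 142 FPKM in control and 175, 127 and 172 FPKM in KD 2-cell embryos. In morulae it was at 41.8, 39.6, 30.1 and 24.7 FPKM in control and 43.2, 36.9 and 37.5 FPKM in KD embryos, and in blastocysts at 18.4, 24.6, 25.8 and 17.5 FPKM in control and 24.2, 21.1, 25.4 and 31.7 FPKM in KD embryos. It was the member with the most mRNA left in morulae and blastocysts, and control and KD libraries overlapped at each stage. Its log2 fold change from the 2-cell stage to the morula was −2.36 (SE 0.17) in control and −2.12 (SE 0.19) in KD embryos. Cnot7 fell again to the blastocyst, with values of −0.61 (SE 0.17, adjusted p = 0.00482) in control and −0.77 (SE 0.18, adjusted p = 0.00247) in KD embryos. The exons of Cnot7 share 247 bases with the antisense gene Zdhhc2, which averaged 2.37 FPKM, so reads there cannot be assigned without strand.

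Cnot6l, the other type of catalytic deadenylase in the complex, lies at chr5:96070333-96164171 on the minus strand. Its levels were 27.8, 31.1, 21.3 and 31.8 FPKM in control and 31.2, 43.6 and 40.9 FPKM in KD 2-cell embryos. KD replicates 2 and 4 were above all control libraries and KD replicate 1 was among them. In morulae it was at 0.637, 0.600, 0.444 and 0.479 FPKM in control and 1.25, 0.760 and 0.635 FPKM in KD embryos, and in blastocysts at 0.656, 0.849, 0.902 and 0.554 FPKM in control and 0.307, 0.303, 0.650 and 0.380 FPKM in KD embryos. KD libraries thus lay mostly above control in morulae and mostly below control in blastocysts, with an overlap of a single library pair at the edge in morulae and of KD replicate 5 in blastocysts. Every morula was below every 2-cell library. The log2 fold changes of Cnot6l from the 2-cell stage to the morula, −4.31 (SE 0.15) in control and −4.54 (SE 0.18) in KD embryos, have a direction that the filter had set.

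Pabpn1l, an oocyte poly(A)-binding protein known to work with Btg4, lies at chr8:122619471-122622739 on the minus strand. Its mRNA was at 0.948, 1.14, 2.06 and 1.14 FPKM in control and 1.58, 0.523 and 1.23 FPKM in KD 2-cell embryos. It was listed at 0 in all control morulae and blastocysts, at 0.101 FPKM in KD morula replicate 2, at 0.0329 FPKM in KD blastocyst replicate 1, and at 0 in the other KD libraries of these stages. It was therefore among the DEGs with lower expression in morulae in control and in KD embryos, and no fold change is given against the control group at 0. In KD embryos its log2 fold change was −1.08 (SE 0.15), and it was above −1 without 2-cell KD replicate 1 (−0.91), in FPKM as deposited (−0.998) and after quantile normalization (−0.88). Pabpn1l passed the filter through 2-cell libraries alone, so its lower value in morulae was set by the filter and its test adds nothing to the values.

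Zfp36l2, a zinc finger protein that binds AU-rich elements and recruits CCR4-NOT, lies at chr17:84183931-84187947 on the minus strand and had a different course from the other members. It was measured at 2.51, 1.35, 1.57 and 1.09 FPKM in control and 1.73, 2.80 and 2.67 FPKM in KD 2-cell embryos. In morulae it was at 1.14, 1.17, 1.30 and 0.666 FPKM in control and 2.36, 1.62 and 2.03 FPKM in KD embryos, and in blastocysts at 4.28, 3.08, 2.24 and 3.79 FPKM in control and 2.43, 2.38, 4.52 and 2.50 FPKM in KD embryos. All 3 KD morulae were above all 4 control morulae. Blastocysts were above the morulae of their condition without overlap, in KD embryos narrowly (2.38 against 2.36 FPKM at the edge). The 2-cell and morula libraries overlapped in control and in KD embryos. Its exons share 105 bases with an antisense gene that averaged 0.0138 FPKM, so reads there cannot be assigned without strand.

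Its fall from the 2-cell stage to the morula in control embryos was small, at −0.44 (SE 0.20, adjusted p = 0.0488). It passed in 2 of the 8 fits that left out 1 library, those without 2-cell control replicate 5 (adjusted p = 0.0210) and without morula control replicate 7 (0.0427). Zfp36l2 did not pass without 2-cell control replicate 1 (0.212), 2 (0.0530) or 4 (0.0544), or without morula control replicate 1 (0.0803), 2 (0.0617) or 8 (0.139). It was also lost with no filter (0.0906), in FPKM as deposited (0.127), in the fit of these 2 groups alone (0.114) and after quantile normalization (−0.11, adjusted p = 0.597), which moved the median of all genes to 0.12. With a pseudocount of 0.1 it passed (−0.72, adjusted p = 0.0297). The Zfp36l2 value in KD embryos was −0.27 (SE 0.23, adjusted p = 0.281) and did not pass.

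Zar1 and its paralog Zar1l encode zinc finger proteins that bind and store maternal mRNA in the oocyte, and both lie on the minus strand of chromosome 5, at chr5:72576806-72581254 and chr5:150507055-150518164. Zar1 was measured at 1.18, 1.46, 2.81 and 2.54 FPKM in control and 2.81, 2.85 and 2.52 FPKM in KD 2-cell embryos. Control replicates 1 and 2 were the low libraries, and the other 2 control libraries lay among the KD libraries. In morulae and blastocysts Zar1 was between 0 and 0.200 FPKM and listed at 0 in 10 of 15 libraries. Of its stretches of 75 bases, 20.7% also occur in other genes, most of them in Gm42668, which averaged 0.00633 FPKM.

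Zar1l was measured at 16.0, 18.8, 22.6 and 20.8 FPKM in control and 21.2, 26.3 and 17.5 FPKM in KD 2-cell embryos, so that the groups overlapped and KD replicate 2 was the highest library. In morulae it was at 0.295, 0.134, 0.0570 and 0.245 FPKM in control and 0.224, 0.418 and 0.106 FPKM in KD embryos, and in blastocysts it was between 0 and 0.171 FPKM. Zar1l mRNA was thus the more abundant of the pair per length at the 2-cell stage in every library, and both were nearly gone in morulae. From the 2-cell stage to the morula, the log2 fold change of Zar1l was −4.17 (SE 0.12) in control and −4.31 (SE 0.14) in KD embryos. That of Zar1 was −1.56 (SE 0.12) in control and −1.996 (SE 0.14) in KD embryos, and for this pair too the filter had set the direction. The smaller values of Zar1 do not show a smaller proportional fall, because the added 1 FPKM weighs more at its low level. In control embryos the mean of Zar1 went from 1.996 to 0.00357 FPKM and that of Zar1l from 19.5 to 0.183 FPKM.

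Ybx2, a Y-box protein of germ cells that packages stored mRNA, lies at chr11:69935796-69941605 on the plus strand. It was measured at 4.80, 3.89, 3.95 and 2.39 FPKM in control and 4.01, 4.21 and 2.11 FPKM in KD 2-cell embryos. The levels in morulae were 0.785, 0.620, 0.482 and 0.426 FPKM in control and 0.535, 0.430 and 0.385 FPKM in KD embryos, and in blastocysts at 0.414, 0.201, 0.249 and 0.270 FPKM in control and 1.09, 0.0544, 1.03 and 0.360 FPKM in KD embryos. KD blastocysts spread more widely than control blastocysts, with 2 libraries above and 1 below all of them. Its log2 fold change from the 2-cell stage to the morula was −1.66 (SE 0.20) in control and −1.69 (SE 0.23) in KD embryos, a direction that the filter had set.

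Cpeb1, which binds the cytoplasmic polyadenylation element and controls the tail length of stored mRNA, lies at chr7:81347026-81455465 on the minus strand. Its mRNA was at 3.50, 3.33, 5.00 and 4.92 FPKM in control and 3.31, 5.06 and 3.60 FPKM in KD 2-cell embryos. The levels in morulae were 0.226, 0.173, 0.0445 and 0.178 FPKM in control and 0.161, 0.406 and 0.212 FPKM in KD embryos, and in blastocysts at 0.292, 0.375, 0.927 and 1.03 FPKM in control and 0.541, 1.00, 1.62 and 0.457 FPKM in KD embryos. Blastocysts of each condition lay above all morulae of that condition and below all 2-cell libraries. From the 2-cell stage to the morula Cpeb1 fell, with log2 fold changes of −2.20 (SE 0.16) in control and −2.09 (SE 0.19) in KD embryos.

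Dcp1a, a cofactor of the decapping enzyme Dcp2, lies at chr14:30479535-30527063 on the plus strand. Its levels were 5.87, 5.75, 8.91 and 7.79 FPKM in control and 6.54, 10.2 and 6.30 FPKM in KD 2-cell embryos. The levels in morulae were 1.34, 1.02, 0.860 and 1.68 FPKM in control and 1.85, 0.491 and 0.963 FPKM in KD embryos, and in blastocysts at 0.788, 1.44, 1.10 and 3.06 FPKM in control and 1.59, 0.799, 4.36 and 1.94 FPKM in KD embryos. The groups of a stage overlapped, and control blastocyst replicate 6 and KD blastocyst replicate 5 were the high libraries. Its log2 fold change from the 2-cell stage to the morula was −1.97 (SE 0.25) in control and −2.20 (SE 0.29) in KD embryos. Its paralog Dcp1b was at or below 0.141 FPKM in all 22 libraries.

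**Figure D2:**
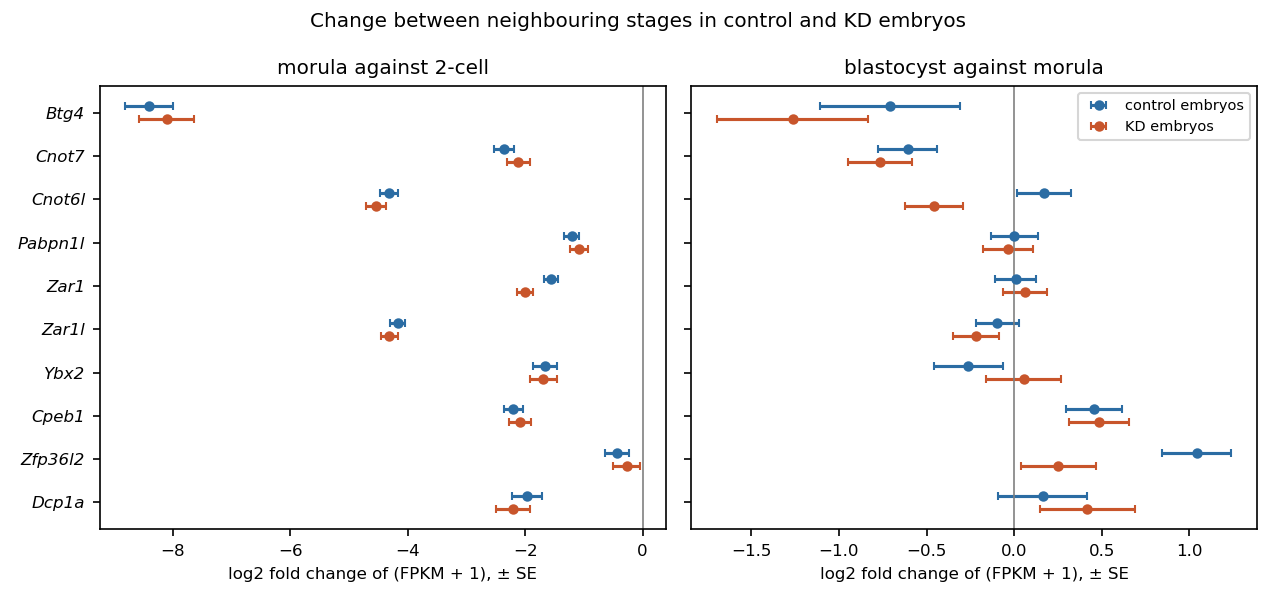
Change of each gene from the 2-cell stage to the morula (left) and from the morula to the blastocyst (right), as log2 fold change of FPKM + 1 on the horizontal axis, with points for control (blue) and H2A.Z KD embryos (orange) and bars of ± 1 SE from limma. On the left all points lie below 0, from Zfp36l2 near 0 to Btg4 at −8.40 in control embryos; on the right the values scatter around 0, and Zfp36l2 in control embryos (1.04) and Btg4 in KD embryos (−1.27) lie farthest from it.

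From the morula to the blastocyst, 1 member was a DEG with higher expression in control embryos, Zfp36l2, against 10.9% of genes tested, and none was a DEG with lower expression, against 8.19%. The log2 fold change of Zfp36l2 was 1.04 (SE 0.20, adjusted p = 0.00015), close to the limit of 1. Without morula control replicate 8 it was 0.96, without blastocyst control replicate 1 it was 0.89, and after quantile normalization it was 0.95, so that it was no longer a DEG, while its adjusted p ranged from 3.98e-05 to 0.000973 over the libraries left out. Without the limit on size, 2 members passed as higher in control embryos, against 24.5%, and 1 passed as lower, against 20.6%. They were Zfp36l2 and Cpeb1 (0.46, SE 0.16, adjusted p = 0.0238), and Cnot7. The adjusted p of Cpeb1 ranged from 0.0135 to 0.0950 over the libraries left out, and it did not pass without morula control replicate 7 (0.41, adjusted p = 0.0642), blastocyst control replicate 5 (0.39, adjusted p = 0.0730) or blastocyst control replicate 6 (0.36, adjusted p = 0.0950).

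In KD embryos, 1 member was a DEG with lower expression in blastocysts than in morulae, Btg4, against 4.20% of genes tested, and none was a DEG with higher expression, against 6.24%. The log2 fold change of Btg4 was −1.27 (SE 0.43, adjusted p = 0.0296), and the adjusted p rose to 0.0999 without KD morula replicate 2, 0.0776 without KD morula replicate 6, 0.0551 without KD blastocyst replicate 1, 0.0577 without replicate 4 and 0.0605 without replicate 6. The adjusted p of Btg4 was also 0.106 with no filter on low values, 0.0519 with a term for the range of replicate numbers and 0.000282 in the fit of these 2 groups alone. Btg4 was at most 1.97 FPKM in all of these libraries. Without the limit on size, 3 members passed as lower in KD embryos, against 14.0%, and 1 as higher, against 16.3%. They were Btg4, Cnot7 and Cnot6l (−0.46, SE 0.17, adjusted p = 0.0398), and Cpeb1 (0.48, SE 0.17, adjusted p = 0.0378).

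These last 2 calls also rested on single libraries. Cnot6l in KD embryos did not pass without KD morula replicate 1 (−0.34, adjusted p = 0.205) or 2 (−0.50, adjusted p = 0.0678), without KD blastocyst replicate 1 (−0.43, adjusted p = 0.0772), 4 (−0.43, adjusted p = 0.0806) or 6 (−0.45, adjusted p = 0.0731), with no filter (0.0567), in FPKM as deposited (0.0674) or with a term for the range of replicate numbers (0.0682), and its adjusted p ranged from 0.00224 (pseudocount of 0.1) to 0.205. Cpeb1 in KD embryos did not pass without KD morula replicate 1 (0.42, adjusted p = 0.138) or 6 (0.46, adjusted p = 0.0965), without KD blastocyst replicate 4 (0.43, adjusted p = 0.0969) or 5 (0.35, adjusted p = 0.132), with no filter (0.0808), after quantile normalization (0.0625) or with that term (0.0699), and its adjusted p ranged from 0.0162 to 0.138.

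KD and control embryos of a stage were compared to ask how the mRNA levels of these genes differ between them. In 2-cell embryos none of the 10 members passed in limma at an adjusted p under 0.05, nor did any of the 12160 genes tested (0%). With no adjustment, 1 member was under 0.05 in limma, against 5.76% of genes tested, which was Cnot6l, with a log2 fold change of 0.52 (SE 0.20, adjusted p = 0.828). KD and control libraries overlapped for all 10 members, and 6.78% of genes tested had no overlap. Their median log2 fold change was 0.13, beside 0.00 over all genes, and the standard errors of single members lay between 0.17 and 0.55.

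In morulae 4 members passed the filter within the stage (Btg4, Cnot7, Zfp36l2 and Dcp1a). None was a DEG, against 3.52% of the 10989 genes tested. With no limit on size, 1 member passed as higher in KD morulae, against 4.23% of genes tested. Its KD and control libraries did not overlap, as for 29.6% of genes tested. Those of the other 9 members overlapped, of which 6 were below the filter. The member that passed was Zfp36l2, with a log2 fold change of 0.61 (SE 0.17, adjusted p = 0.0354) and higher levels in 3 of 3 KD libraries. Zfp36l2 no longer passed in 6 of the 7 fits that left out 1 library, the exception being control replicate 7 (0.0494): without control replicate 1 (adjusted p = 0.0500), 2 (0.0589) or 8 (0.0920), or without KD replicate 1 (0.123), 2 (0.0619) or 6 (0.0818). It also did not pass with no filter (0.103), in FPKM as deposited (0.0603), in the fit over all 22 libraries (0.0768) or with the replicate number as a block (value given below). It passed with a pseudocount of 0.1 (0.0452) and after quantile normalization (0.0288). Its log2 fold change lay between 0.53 and 0.71 over the libraries left out. The values of the other members were 0.45 (SE 0.24) for Btg4, 0.35 (SE 0.17) for Cnot7 and −0.06 (SE 0.23) for Dcp1a, which did not pass. Btg4 passed the filter only with the KD libraries, of which 3 reached 1 FPKM against 1 control library. Dcp1a passed it only with the control libraries, of which 3 reached 1 FPKM against 1 KD library. The filter thus favoured the direction of the Btg4 and Dcp1a values.

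In blastocysts 4 members passed the filter (Cnot7, Cpeb1, Zfp36l2 and Dcp1a). None was a DEG in limma, against 13.7% of the 11828 genes tested, none passed without the limit on size, against 36.5%, and none had an unadjusted p under 0.05, against 46.0%. KD and control libraries overlapped for all 10 members, 6 of them below the filter, while 34.5% of genes tested had no overlap. The log2 fold changes were 0.25 (SE 0.18) for Cnot7, 0.19 (SE 0.21) for Cpeb1, −0.15 (SE 0.22) for Zfp36l2 and 0.24 (SE 0.30) for Dcp1a. The study reports that far fewer KD than control embryos formed blastocysts, so the KD blastocysts may be a selected part of the injected embryos. The share of this in the values was not tested.

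Cell type markers differed between the KD and control libraries as well. In morulae the inner cell mass and epiblast genes (Nanog, Pou5f1, Sox2, Tdgf1 and Fgf4) summed to between 91.8 and 154 FPKM in KD, with Tdgf1 the most abundant, against 195 to 253 FPKM in control embryos, with Nanog the most abundant. Nanog was at 62.9, 103, 113 and 143 FPKM in control and 17.9, 11.6 and 32.5 FPKM in KD morulae, and it was a DEG with lower expression in KD (−2.23, adjusted p = 0.00647; 0.00367 to 0.0313 over the libraries left out, and 0.0719 with no filter). Of the others, Pou5f1 (−0.49), Tdgf1 (−0.13) and Fgf4 (0.30) did not pass and Sox2 was below the filter, so the lower sum lay mostly in Nanog. The trophectoderm sums of morulae overlapped, at 69.9 to 104 FPKM in KD and 93.3 to 132 FPKM in control embryos. Within them Gata3 was at 9.88 to 14.3 FPKM in KD, below all control morulae (16.5 to 22.7 FPKM), and did not pass in limma (−0.57, adjusted p = 0.0658). Krt18 (−0.33), Eomes (−0.11) and Krt8 (0.08) did not pass either, and Cdx2 and Krt7 were below the filter. The changes of Zfp36l2 and of these markers in KD morulae come from the same libraries.

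In blastocysts the trophectoderm genes summed to between 573 and 768 FPKM in KD embryos, below all control blastocysts, and Krt18 and Krt8 made up most of these sums. Krt18 was lower in KD (−1.02, adjusted p = 0.00126; −0.93 without control replicate 4, −0.98 without KD replicate 5 and −0.93 without KD replicate 6), and Krt8 (−0.49), Eomes (−0.48) and Gata3 (−0.29) did not pass. Within that list Krt7 was higher in KD (0.64, adjusted p = 0.00679), at 0.696, 1.21, 1.18 and 0.945 FPKM in control and 1.57, 2.24, 2.34 and 2.34 FPKM in KD blastocysts, and Cdx2 did not pass (0.05). The inner cell mass and epiblast sums overlapped, at 149 to 293 FPKM in KD and 181 to 296 FPKM in control blastocysts, with Nanog the most abundant in both. Within them Tdgf1 was a DEG with lower expression in KD (−2.28, adjusted p = 3e-05), at 99.5, 96.5, 77.0 and 49.3 FPKM in control and 13.5, 15.0, 18.5 and 13.8 FPKM in KD blastocysts, while Nanog (0.29), Pou5f1 (0.82) and Sox2 (−0.18) did not pass. Fgf4, below the filter, was at 0.459 to 0.554 FPKM in KD and 0.710 to 1.01 FPKM in control blastocysts. The 5 genes of the 2-cell embryo summed to between 4.09 and 27.8 FPKM in KD and 0.428 to 3.36 FPKM in control blastocysts, with Tcstv3 the most abundant. Zfp352 (1.56, adjusted p = 0.00157) and Tcstv3 (2.01, adjusted p = 0.0145) were DEGs with higher expression in KD in limma. Tcstv1 (0.72) did not pass, and Zscan4c and Zscan4d were below the filter. Primitive endoderm genes, with Pdgfra the most abundant, summed to between 0.399 and 1.76 FPKM in KD and 1.06 to 3.94 FPKM in control blastocysts. No gene of these 4 lists was at 0 in all libraries of a blastocyst group. The part of these marker differences in the values of the members was not tested.

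Members below the filter were compared by a two-sided exact permutation test of the mean log2(FPKM + 1), in 12 tests, 6 in morulae over 35 arrangements and 6 in blastocysts over 70, in which the smallest p possible is 0.0286. None was under 0.05. The smallest exact p, 0.0571, was found for Cnot6l in morulae, with means of 0.540 FPKM in control and 0.881 FPKM in KD embryos, and again for Cnot6l in blastocysts, with means of 0.740 FPKM in control and 0.410 FPKM in KD embryos.

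The difference of the KD effect between stages was tested as an interaction in the fit over 22 libraries. Between the morula and the 2-cell stage none of the 10 members passed in limma, against 1.35% of genes tested, and 1 of 10 had an unadjusted p under 0.05, against 14.5% of genes tested, Zar1 (−0.44, SE 0.18, adjusted p = 0.244). Zar1 passed the filter through 2-cell libraries alone and was at most 0.0167 FPKM in any morula. Its value thus mostly restates the 2-cell difference with the sign turned. Between the blastocyst and the morula none passed, against 9.35%, and 2 of 10 had an unadjusted p under 0.05, against 22.8%, Zfp36l2 (−0.79, SE 0.29, adjusted p = 0.0955) and Cnot6l (−0.63, SE 0.23, adjusted p = 0.0861). Zfp36l2 passed without blastocyst control replicate 5 (−0.95, adjusted p = 0.0333), with adjusted p of 0.0333 to 0.205 over the libraries left out. Cnot6l passed with a pseudocount of 0.1 in place of 1 (−1.47, adjusted p = 0.0108), with adjusted p of 0.0861 to 0.127 over filter and scaling. For Btg4, which was a DEG from the morula to the blastocyst in KD embryos and did not pass in control embryos (−0.71, SE 0.40, adjusted p = 0.163), the difference was −0.56 (SE 0.59, adjusted p = 0.671). These stage contrasts share their morula libraries, and the KD contrasts share the control libraries of each stage.

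Other genes of the same processes were taken from lists of gene symbols and are given beside the members, and of all genes tested 29.1% were DEGs with lower and 25.5% with higher expression in control morulae than in 2-cell embryos. Of 10 transcripts stored in the oocyte, among them Oosp1 (−8.24), Bmp15 (−6.68) and H1foo (−5.01), all 10 were DEGs with lower expression in morulae than in 2-cell embryos in control and in KD embryos, with medians of −3.27 and −3.16. Of these, Mos, Gdf9, Bmp15, Zp1, Zp2, H1foo and Kit passed the filter only with the 2-cell libraries and had to be lower in morulae. The same holds for Tob2, Tent4a, Tnrc6b, Lsm14b and Eif4e1b among the falls of the lists below, and in reverse for Edc3 among the rises, so these counts are descriptions too. Genes named as leading a list are ranked on the log2(FPKM + 1) scale, which understates the changes of genes near 1 FPKM. Of 14 other CCR4-NOT subunits and BTG/TOB adaptors, 4 fell and 2 rose as DEGs in control embryos, the falls led by Tob1 (−3.75), Tob2 (−3.35) and Cnot6 (−1.56), with Cnot9 (1.19) among the rises. Of 13 poly(A) tail enzymes and poly(A)-binding proteins 5 fell, led by Tent4a (−4.76), Pabpn1 (−3.55), the paralog of Pabpn1l, and Pan3 (−2.41), and 1 rose, Pabpc4 (1.55).

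Of 14 tested genes of decapping and decay from the 5′ end, 3 fell, among them Dcp2 (−3.45) and Ddx6 (−1.30), and 6 rose, led by Lsm5 (4.41), Lsm3 (3.26) and Lsm4 (2.31). Dcp2 was at 19.4, 18.9, 19.1 and 18.2 FPKM in control 2-cell embryos and at 1.02, 0.861, 1.13 and 0.839 FPKM in control morulae, so the enzyme and its cofactor Dcp1a were both lower in morulae. Of 16 other storage and repression genes 8 fell, led by Dazl (−3.81), Lsm14a (−3.74) and Cpeb4 (−3.33), and 2 rose, Ybx3 (2.15) and Igf2bp1 (1.85). Of 10 tested adaptors that read mRNA sequence 2 fell, Ythdf3 (−2.35) and Tnrc6b (−1.65), and 1 rose, Elavl1 (1.22).

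In KD against control embryos, none of these lists held a DEG in 2-cell embryos, and the BTG family held both DEGs in morulae (2 of 13 CCR4-NOT and BTG/TOB genes tested, with higher expression, against 0.992% of all genes tested) and 3 of the DEGs in blastocysts (3 of 13, against 6.06%). Btg2, a relative of Btg4 that also binds CCR4-NOT, was at 3.19, 0.945, 2.87 and 2.74 FPKM in control and 7.46, 8.10 and 6.47 FPKM in KD morulae, and at 7.998, 9.85, 10.8 and 10.8 FPKM in control and 29.2, 23.5, 15.4 and 19.1 FPKM in KD blastocysts. The KD libraries were above all control libraries at both stages, and the log2 fold changes were 1.43 (SE 0.25, adjusted p = 0.00713) in morulae and 1.05 (SE 0.22, adjusted p = 0.00333) in blastocysts. Btg3 was a DEG with higher expression in KD morulae (1.15, SE 0.24, adjusted p = 0.0130) and blastocysts (1.08, SE 0.23, adjusted p = 0.00328), and Btg1 in blastocysts (1.24, SE 0.22, adjusted p = 0.00132). In morulae Btg2 and Btg3 failed to pass with no filter on low values (adjusted p = 0.0608 and 0.0901), and Btg3 did not pass without KD replicate 1 (0.0554) or 2 (0.0612). In blastocysts the log2 fold change was under 1 for Btg2 without KD replicate 1 (0.87) or 4 (0.98) and for Btg3 without control replicate 6 (0.98) or KD replicate 6 (0.92). Btg4 was below 1 FPKM in all blastocysts, and its exact p there was 0.771.

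**Figure D3:**
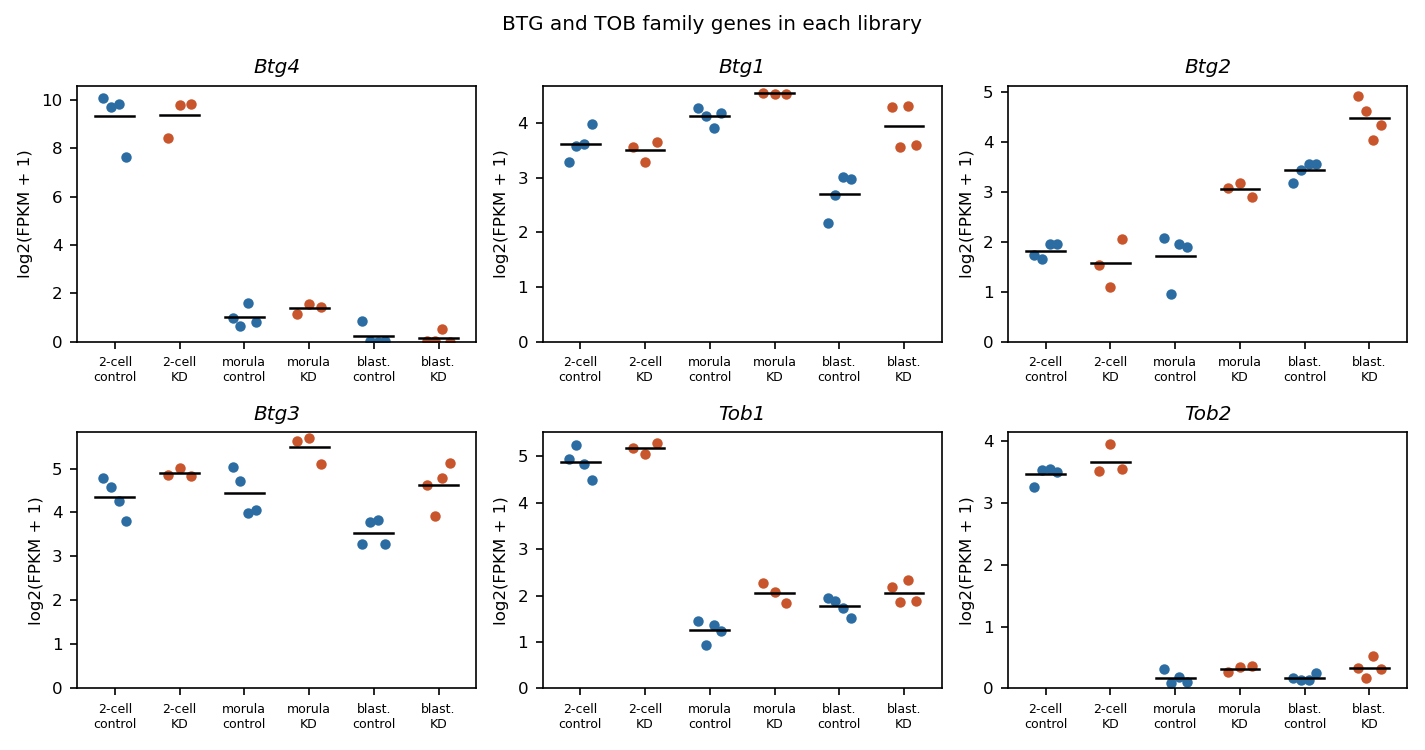
Btg4 and other genes of the BTG and TOB family in each of the 22 libraries, as log2(FPKM + 1) on the vertical axis, by group on the horizontal axis, with points for libraries (blue control, orange H2A.Z KD) and black lines for group means. Btg4, Tob1 and Tob2 are high at the 2-cell stage and low later, while Btg1, Btg2 and Btg3 are present at all stages and are higher in KD than in control blastocysts.

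The transcript ends of the members were searched for elements that storage and decay factors bind, in the last 300 bases of 1 transcript for each of 21660 protein-coding genes of GENCODE vM21 (GRCm38, the assembly of mm10), on the transcribed strand. The cytoplasmic polyadenylation element TTTTAT, which Cpeb1 binds, was present for 4 of the 10 members and for 25.4% of all genes. The polyadenylation signal AATAAA was present for 8 members and for 66.4% of all genes, the AU-rich element TATTTAT for 1 member (Cnot7) and for 8.81%, and the Pumilio element TGTANATA for none and for 8.02%. The only AATAAA of Btg4 started 291 bases from the transcript end, far from it, whereas those of the other members started 11 to 39 bases from it. The sites of TTTTAT nearest to the transcript end are shown, with the element in capitals, because this is the element that Cpeb1, a member, binds. They lie at chr9:51119803-51119832 (plus strand, 67 bases from the start of the element to the transcript end) for Btg4, chr8:40493036-40493065 (minus strand, 20 bases) for Cnot7, chr11:69941538-69941567 (plus strand, 62 bases) for Ybx2 and chr14:30526991-30527020 (plus strand, 67 bases) for Dcp1a, each within a single exon.
Btg4: atccctTTTTATgtctttttaaaagtttga
Cnot7: ttaaggtacaTTTTATatcaataaaaatac
Ybx2: aagccaTTTTATgaactgtcatgtgccacc
Dcp1a: cctaaaTTTTATatgtttgcaaatatattt

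A match of letters is a description and not a site shown to be bound. Of these 4 genes, all were DEGs with lower expression in control morulae than in 2-cell embryos, as were 5 of the 6 members without a match. The share over all genes tested was 29.1%. The filter had set the direction for Ybx2 among the 4 and for Cnot6l, Zar1, Zar1l and Pabpn1l among the 6, so this split tests nothing.

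Promoters were available from RefSeq (GRCm38.p6) for 8 of the 10 members, Cnot7 and Zfp36l2 being the others, with 3 for Cnot6l, 2 for Ybx2 and 11 in all. In the 250 bases before the start, on either strand, the homeobox element TAATTG, which the oocyte factor NOBOX binds, occurred in 1 of these 11, that of Zar1l (chr5:150518160-150518409, minus strand, 2 matches), and in 7.17% of 32851 promoters. The E-box CANNTG, which the oocyte factor FIGLA binds, occurred in 9 of the 11 and in 66.2% of promoters, and TATAAA in 1, that of Cpeb1, and in 12.4%. The promoters differed in CG content: that of Btg4 held 1 CG dinucleotide, with 7.87% of promoters holding fewer, that of Zar1l held 2 and that of Pabpn1l 3, that of Zar1 held 9, those of Dcp1a and Cpeb1 held 23 and 25, those of Ybx2 held 35 and 29, and those of Cnot6l held 37, 36 and 27.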

How the data were processed

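The authors aligned the paired reads of 150 bp to mm10 with STAR and deposited FPKM per gene from StringTie 2.1.4, and they called their own DEGs from featureCounts 1.6.2 counts with DESeq2 1.30.1, which were not used here. The cDNA was amplified by 16 to 18 PCR cycles before the libraries were built. FPKM carry no counts: the low values of 13500 single-exon genes of at least 300 bases fell on whole steps (within 0.05) for only 17.3% to 28.2% of values, against 10% for an even spread, so the depth is unknown and the error given is the spread between libraries.

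Each library was scaled by the median of its ratios to the geometric mean over libraries, and log2(FPKM + 1) was used. Genes with at least 1 FPKM in at least 3 libraries were tested with limma 3.58.1 in R 4.3.3 (lmFit, eBayes with a trend, no covariates), with Benjamini-Hochberg adjustment over all genes tested. KD and control were compared within each stage, and stages and interactions in 1 fit over the 6 groups. The fit was tested on simulated data. Sequences were searched, and figures drawn, with Python 3.11.15 and matplotlib 3.10.9. Alternatives were a pseudocount of 0.1, no filter, no scaling, quantile normalization, the fit over other sets of libraries, the replicate number as a block, and each library left out. A term for the range of replicate numbers was chosen after seeing the data.

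The members and lists were chosen with earlier results of these data known. Named are all 10 members, up to 3 genes most alike in pattern for each, and, from each other list and comparison, up to 3 DEGs with the largest change in each direction. Uncalled paralogs of members may be named with values. Markers were listed beforehand. Titles label the libraries as separate samples, but nothing states that they came from separate litters or days, so p-values measure the spread between these samples, which may be technical. No value column was without a sample (0). Other experiments of the study were not analysed here.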

Additional observations from a re-analysis of the deposited data

Results flagged for a closer look

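In groups of 4 libraries, a value was set apart where its gap to the next library, as a share of the range of the group, was above the usual limit for 4 values (Dixon). Of 38 groups of the members tested, 8 held such a value, in 5 members, and chance alone sets apart about 1 in 20 groups of normally scattered values. That rate does not hold where the other 3 values are 0, as in 3 of the 8 (Zar1 in control morulae and control blastocysts, Pabpn1l in KD blastocysts), and the same libraries hold all members, so the count is not compared with chance.

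Among these, Btg4 was at 0.791 FPKM in blastocyst control replicate 1, where the other control blastocysts were between 0.00571 and 0.0356 FPKM, and at 0.430 FPKM in blastocyst KD replicate 5, where the others were between 0 and 0.0372 FPKM. Zar1 was at 0.0143 FPKM in morula control replicate 1 and at 0.0429 FPKM in blastocyst control replicate 6, with the other libraries of each group at 0, and at 0.200 FPKM in blastocyst KD replicate 4, with the others between 0 and 0.0177 FPKM. Zar1l was at 0.171 FPKM in blastocyst control replicate 5, with the others between 0.0659 and 0.0766 FPKM. Pabpn1l was at 0.0329 FPKM in blastocyst KD replicate 1, with the others at 0. Zfp36l2 was at 4.52 FPKM in blastocyst KD replicate 5, with the others between 2.38 and 2.50 FPKM. Of the 8 values, 7 were below 1 FPKM, and each was the highest of its group.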

How the results depend on the processing

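Over all alternatives other than leaving out a library, 488 of 512 fold changes of members kept their direction and their side of the threshold, 21 no longer passed, 3 passed in addition and 0 turned, and 113 of 122 counts of members called stayed within 1.5 times. Counts moved only between neighbouring stages after the morula or in the difference of the KD effect there. With a pseudocount of 0.1, 2 members were called higher and 1 lower (Btg4) from the morula to the blastocyst in control embryos, against 1 and 0. With it, 1 was called higher and 3 lower in KD embryos, against 0 and 1, and 1 was called lower (Cnot6l) in the difference of the KD effect between blastocyst and morula, against 0. Quantile normalization left 0 members called higher from the morula to the blastocyst in control embryos, and 0 were called lower in KD embryos with no filter on low values, and 0 when a term for early against late replicate numbers was added. The cause was not tested.

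Leaving out each library in turn, the members called lower from the 2-cell stage to the morula numbered 9 to 9 in control and 8 to 9 in KD embryos, those called higher from the morula to the blastocyst in control embryos 0 to 1, and those called lower there in KD embryos 0 to 1. All other counts of members were 0 to 0.

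With the replicate number as a block, 0 members were called lower from the morula to the blastocyst in KD embryos, against 1, and Zfp36l2 in KD morulae had an adjusted p of 0.152 (0.0288 to 0.103 over the planned settings without the block). Of the 21 member values that no longer passed over all alternatives, 6 were lost with this block. A number does not pair single libraries: deviations of same-numbered control and KD libraries correlated at 0.209, 0.0146 and 0.214 in 2-cell embryos, 0.181 and 0.0944 in morulae and 0.086, −0.111, 0.354 and 0.00149 in blastocysts. In part, low and high numbers went together across control and KD at the earlier stages. Deviations from a group mean cancel within the group, so positive correlations with some libraries bring negative ones with the others. The negative values across are therefore not separate support. In morulae control replicates 1 and 2 correlated with KD replicates 1 and 2 (0.0944 to 0.181) and control replicates 7 and 8 with KD replicate 6 (0.185 and 0.347), with −0.278 to −0.0945 across. In 2-cell embryos control replicates 1 and 2 correlated with KD replicate 1 (0.209 and 0.205) and control replicates 4 and 5 with KD replicate 4 (0.214 and 0.163), with −0.237 to −0.168 across, but KD replicate 2 correlated with none of the control replicates 1, 2, 4 and 5 (−0.0211, 0.0146, −0.00246 and 0.0103). In blastocysts control replicate 1 correlated with KD replicate 4 (0.401) and control replicate 5 with KD replicate 5 (0.354), with −0.381 and −0.342 across. The other pairs of blastocyst libraries lay between −0.111 and 0.138. A term for low against high numbers was therefore added after seeing the data, with its values given above.

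After quantile normalization the median of all genes from the 2-cell stage to the morula was 0.12 in control and 0.11 in KD embryos, against −0.02 and −0.04, and that of the members was −1.88 and −1.92, against −2.08 and −2.10. In FPKM as deposited, DEGs with higher expression made up 14.3% of DEGs in KD morulae, against 28.2% after scaling, 72.7% against 59.7% from the morula to the blastocyst in KD embryos, and 57.4% against 43.3% in the difference of the KD effect there. The depth is unknown, so values near 0 carry no counting error.

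FPKM are shares of the captured mRNA, so a change in total mRNA between stages cannot be seen. Oligo-dT priming captures mRNA by its poly(A) tail, so lengthening or shortening of tails, which stored mRNA undergoes, may change a value without a change in the number of molecules, and this was not tested. Groups of 3 or 4 libraries give wide errors, such as for Btg4 between KD and control 2-cell embryos (SE 0.55). Protein levels were not measured.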

Other observations

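Among other storage genes, Patl2, an oocyte repressor of translation, had its highest level in blastocysts. It was measured at 15.9, 15.3, 18.3 and 17.6 FPKM in control and 4.74, 5.09, 5.44 and 6.36 FPKM in KD blastocysts, and at or below 1.22 FPKM in all 2-cell embryos and morulae. It rose from the morula to the blastocyst in control embryos by 3.50 (SE 0.14) on the log2 scale, was lower in KD than in control blastocysts (−1.47, SE 0.16, adjusted p = 4.61e-05 in limma), and the KD effect differed between blastocyst and morula (−1.17, SE 0.21, adjusted p = 0.00111 in limma). This difference in Patl2 did not pass with a pseudocount of 0.1 (−0.37, adjusted p = 0.731) and was −0.99 (adjusted p = 0.00489) after quantile normalization.

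Ybx1, a paralog of Ybx2, was measured at 102, 138, 142 and 121 FPKM in control and 436, 181, 351 and 339 FPKM in KD blastocysts, with all KD libraries above all control libraries (1.32, SE 0.23, adjusted p = 0.00107 in limma). Pabpc4, a cytoplasmic poly(A)-binding protein, was at 13.9, 24.4, 19.2 and 19.6 FPKM in control and 37.1, 41.2, 58.6 and 37.9 FPKM in KD blastocysts (1.15, SE 0.17, adjusted p = 0.000436 in limma). Both had been higher in control morulae than in control blastocysts, Ybx1 between 209 and 458 FPKM and Pabpc4 between 42.5 and 60.9 FPKM. Btg2 was the only gene of the storage and decay lists whose KD effect differed as a DEG between morula and 2-cell embryos (1.62, SE 0.36, adjusted p = 0.0270 in limma), and it did not pass without 2-cell KD replicate 1 (0.0604) or 2 (0.0695), without morula KD replicate 1 (0.0588) or 2 (0.0784), or with no filter on low values (0.0621).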
